A study of Mus musculus with 24 samples.

Results

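Wild type mouse bone marrow cells were compared between day 3 and day 2 of osteoclast culture, the interval in which precursors begin to fuse. The comparison uses 6 of the 24 RNA-seq libraries of the series, 3 from day 2 and 3 from day 3, chosen by genotype and day. Each of 3 mice, numbered 480, 529 and 531, gave 1 library per day, so the days were compared within the mouse. Marrow came from female mice aged 10 to 12 weeks, was grown for 72 hours in 40 ng/mL mCSF and was then plated at 25000 cells per well. All 6 cultures received the same 10 ng/mL RANKL and 20 ng/mL mCSF, and triplicate wells were pooled into each library. Part of the medium was renewed at day 2 with fresh RANKL and mCSF, so the medium change and the extra day cannot be told apart. No culture kept without RANKL to day 2 or 3 was analysed here. The groups used for comparison were the same days in STING-deficient cells (genotype label KO, mice 481, 528 and 532, otherwise cultured identically) and wild type day 4. Of the 10721 genes in the table, 9422 had a mean of at least 1 FPKM on day 2 or day 3 and were tested.

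Osteoclasts are bone-resorbing giant cells that form when macrophage-lineage precursors fuse. mCSF keeps the precursors alive and dividing through its receptor Csf1r, and RANKL acts through RANK (Tnfrsf11a) and, with co-signals from ITAM receptors such as Oscar, induces the transcription factor Nfatc1. Nfatc1 turns on the genes for fusion (Dcstamp, Ocstamp, Atp6v0d2), for attachment to bone (Itgb3) and for resorption, where a proton pump dissolves mineral and secreted enzymes such as cathepsin K (Ctsk) digest matrix.

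The osteoclast label was checked against its markers: the summed level of 11 defining genes was 116 to 169 FPKM in the day 0 precursors, 8461 to 11090 FPKM at day 2 and 23630 to 25620 FPKM at day 3, with no marker at 0 in all libraries. At days 2 and 3 most of the sum came from Acp5, Ctsk and Mmp9, so it says little about the other markers. Of these 11 genes, which recur in the groups below, 10 rose from day 2 to day 3 and Nfatc1 was not called. Fragment totals are not in the table, but the step size of low values gives relative depth, and the day 3 library of mouse 531 was the shallowest of the 6. The day 3 libraries of mice 480 and 529 were 1.45 and 1.46 times as deep as it, while other pairs of libraries within a group had ratios between 0.948 and 1.045. Its part in the results was not tested, and values without mouse 531 are given where they differ. Sting1, listed as Tmem173, was at 28.7, 25.4 and 21.3 FPKM in the wild type day 0 libraries of mice 480, 529 and 531 and at 5.08, 4.57 and 4.89 FPKM in the STING-deficient ones of mice 481, 528 and 532, so the genotypes were far apart in the precursors. It was at 5.28, 6.15 and 7.35 FPKM in the wild type day 2 libraries and at 3.70, 3.41 and 3.37 FPKM in the STING-deficient ones. At day 3 it was at 4.03, 4.69 and 4.58 FPKM in wild type and at 3.76, 3.79 and 3.19 FPKM in STING-deficient libraries. Every wild type library was above every STING-deficient one on each of these days, by less at days 2 and 3 than at day 0. The labels do not say which part of the gene is altered.

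Of the 9422 genes, 4108 passed the threshold (43.6%), an adjusted p below 0.05 in limma with the mouse as a block. Rises numbered 2090 (22.2%) and falls 2018 (21.4%), and these shares are the background against which every gene group below is read. Large changes were mostly rises: 163 genes rose by at least 1 on the log2 scale (1.73%) and 27 fell by as much (0.287%). The median change of all genes tested was 0.01. Without adjustment, 4925 genes had a p below 0.05 (52.3%). Of the called genes, 4098 moved the same way in all 3 mice. The 2 days did not overlap in 2716 genes that were higher at day 3 (28.8%). They did not overlap in 2608 genes that were lower at day 3 (27.7%), so a lack of overlap was common. A gene below 1 FPKM at day 2 was tested only if it was above at day 3, so such genes had to be higher at day 3. Among the lists below they were 1 gene each of the chemokine, dendritic cell, interferon, macrophage and coupling factor lists. In the same way, a gene below 1 FPKM at day 3 was tested only through day 2 and had to be lower at day 3. Leaving out those also below 1 FPKM at day 4, 12 of 14 falls remained in the stress response list. In the interferon and neutrophil lists 3 of 4 falls remained. The remainder was 4 of 5 drivers, 5 of 6 macrophage, 5 of 6 immediate early, 8 of 9 glycolysis and 6 of 7 chemokine genes. The size of the step differed between mice, with a median absolute log2 change of the called genes of 0.365 in mouse 480, 0.435 in mouse 529 and 0.551 in mouse 531. At day 2, mouse 480 had the highest level of 999 of the 2090 genes that rose and the lowest level of 1138 of the 2018 that fell. Leaving out mouse 480 lowered the called genes to 2656, of which 2602 were among the 4108, and leaving out mouse 531 raised the count to 4628.

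**Figure D1:**
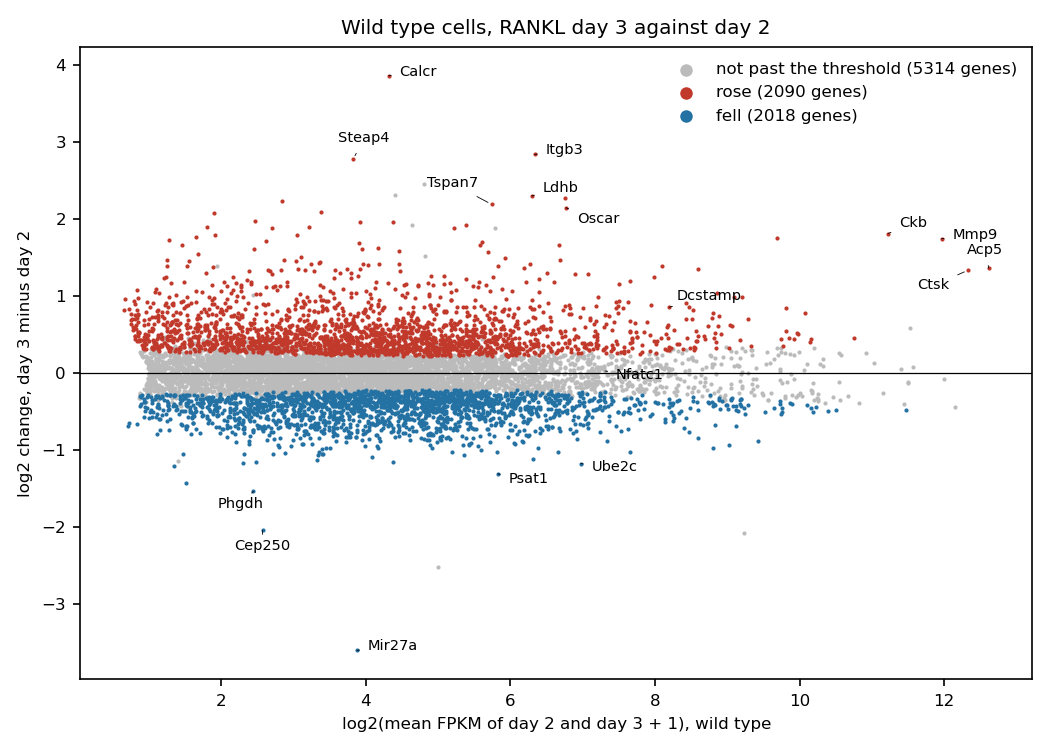
Each point is 1 of the 9422 genes, with the log2 of its mean FPKM over both days plus 1 on the x axis and its log2 change from day 2 to day 3 on the y axis. Genes that rose are red, genes that fell are blue and the others grey; Calcr stands at the top with a change of 3.85, and the most abundant rising genes, Acp5, Ctsk and Mmp9, lie at the right.

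Calcr, the calcitonin receptor through which that hormone stops resorption, showed the largest rise among genes of at least 5 FPKM that did not overlap between days. It was at 2.85, 1.23 and 0.928 FPKM at day 2 and at 30.5, 38.5 and 39.4 FPKM at day 3 in mice 480, 529 and 531 (chromosome 6, 3685678 to 3764713, GRCm38.p6). Mouse 480 was the highest at day 2 and the lowest at day 3, and the days were far apart in all 3 mice. The mean rose 21.6-fold, a log2 change of 3.85 ± 0.221 (SE, n = 3 mice, adjusted p = 4.99e-05), and day 4 stood at a mean of 101 FPKM. Itgb3, the beta chain of the integrin that anchors osteoclasts to bone, came next. Its levels were 29.5, 16.0 and 13.7 FPKM at day 2 and 146, 138 and 135 FPKM at day 3 (chromosome 11, 104608000 to 104670476). The 3 mice differed more at day 2 than at day 3, and the log2 change was 2.83 ± 0.161 (adjusted p = 4.99e-05). Steap4, a metalloreductase that reduces iron and copper, rose by 2.77 from 2.74 ± 1.35 to 23.5 ± 0.769 FPKM (SD, n = 3). Tspan7, a tetraspanin membrane protein, had the smallest adjusted p of the named genes, 1.78e-05, with 20.5, 17.1 and 17.3 FPKM at day 2 and 89.6, 86.4 and 83.8 FPKM at day 3. The other large rises were Ldhb (2.30), the B subunit of lactate dehydrogenase, Akr1c18 (2.27), a steroid-converting aldo-keto reductase, Msln (2.23), the surface protein mesothelin, and Oscar (2.14). Hist2h3c1, a histone H3 gene with a near-identical copy, rose by 2.08, followed by Enpp5 (2.07), Leprel1 (1.97), a collagen prolyl hydroxylase, and Ephx2 (1.95), the soluble epoxide hydrolase. Not one of these 12 genes overlapped between days, which the rule for naming them required.

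The large falls were smaller and came from other kinds of genes. Phgdh, the first enzyme of serine synthesis, fell by 1.54 from 5.05, 8.12 and 8.20 FPKM to 1.97, 2.02 and 1.33 FPKM, and Psat1, the next enzyme of that pathway, fell by 1.31 from 72.0, 77.6 and 89.6 to 35.2, 30.1 and 29.5 FPKM. Ube2c, which tags mitotic cyclins for destruction, fell by 1.18. The list continued with Acsbg1 (-1.16), an acyl-CoA synthetase, Pdpn (-1.15), the surface glycoprotein podoplanin, Angptl2 (-1.15), Rnf183 (-1.12), the neuropeptide gene Npy (-1.11), the amino acid carrier Slc7a5 (-1.09), the histone variant gene H2afx (-1.07), Serpinb1a (-1.05) and the centromere protein gene Cenpm (-1.05).

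Genes of bone resorption were mostly higher at day 3. Of 27 resorption effectors tested, 21 rose and 2 fell, with a median log2 change of 0.98. Acp5, the acid phosphatase TRAP used to stain osteoclasts, was at 3979, 3363 and 3238 FPKM at day 2 and at 8936, 9557 and 8584 FPKM at day 3. The lowest day 3 library was more than 2 times the highest day 2 library, and the log2 change was 1.36 ± 0.187 (adjusted p = 0.00102). Ctsk rose by 1.33 ± 0.178, from 3464, 2602 and 2756 to 7733, 7382 and 6964 FPKM. Mmp9, a matrix-degrading metalloproteinase, rose by 1.74 ± 0.180, from 2281, 1902 and 1409 to 6175, 6315 and 5855 FPKM. The means of these 3 genes rose 2.56-fold, 2.50-fold and 3.28-fold. No day 2 library reached a day 3 library, as in 28.8% of all genes tested. Acid secretion genes moved with them: Car2, the carbonic anhydrase that supplies protons, rose by 0.71 (103 ± 9.02 to 170 ± 15.3 FPKM), and the chloride channel gene Clcn7 and its partner Ostm1 rose by 0.91 and 1.06. Both genes that fell, Ctss (-0.67) and Ctsl (-0.48), encode lysosomal cathepsins that macrophages also use to process antigen, and Ctsl was not called without mouse 480 (adjusted p = 0.0585).

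Oscar, the collagen-binding co-stimulatory receptor, rose from 46.1, 38.7 and 33.2 to 157, 202 and 170 FPKM, a log2 change of 2.14 ± 0.124 (adjusted p = 4.99e-05). Its promoter window is shown because it holds the short core letters bound by NFAT factors, TGGAAA, on either strand, printed in capitals. The window runs from 250 bases before to 50 bases after the RefSeq start on GRCm38.p6, chr7:3616108-3616407, minus strand, and is written 5′ to 3′ on the strand of the gene, as are the windows shown later.
Oscar: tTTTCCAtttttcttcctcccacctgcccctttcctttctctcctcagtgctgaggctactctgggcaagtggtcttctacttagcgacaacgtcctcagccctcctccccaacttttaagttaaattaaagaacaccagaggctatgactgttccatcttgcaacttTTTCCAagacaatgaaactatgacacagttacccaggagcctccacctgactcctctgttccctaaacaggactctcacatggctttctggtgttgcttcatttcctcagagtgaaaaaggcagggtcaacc
The 2 matches in this window are a description of its letters. In the resorption list 7 of 28 windows held TGGAAA (25%), against 16.3% of the windows of genes tested and 21.4% of all 32851 windows. The letters TGANTCA, an AP-1 core, were in 0 of the 28 windows and in 5.25% of those of the genes tested.

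Of the 29 genes tested from the fusion machinery, 15 rose and 2 fell (median 0.28). Dcstamp, the membrane protein without which osteoclasts stay mononuclear, was at 236, 187 and 204 FPKM at day 2 and at 403, 366 and 361 FPKM at day 3. Its related partner Ocstamp was at 166, 131 and 107 FPKM and then at 268, 228 and 221 FPKM. Mouse 480 was the highest of the 3 for both genes on both days, and no day 2 library reached a day 3 library. The log2 changes were 0.85 ± 0.0938 (adjusted p = 0.000454) and 0.84 ± 0.098 (adjusted p = 0.000571). Atp6v0d2, a proton pump subunit that is also needed for fusion, rose by 0.84 ± 0.120 from 644 ± 90.3 to 1145 ± 51.9 FPKM. Siglec15, a sialic acid receptor that signals through an ITAM adaptor, rose by 1.89 from 19.5, 16.6 and 9.80 to 51.5, 58.0 and 62.5 FPKM. Cd200, a surface ligand expressed during fusion, rose by 0.72, and Itgav, the alpha partner of Itgb3, rose by 0.75. Adam8, a membrane protease, fell by 0.73 (224, 265 and 246 to 145, 149 and 147 FPKM), and the monocyte chemokine gene Ccl2 fell by 1.06, with overlapping days. The means of Dcstamp, Ocstamp and Atp6v0d2 rose 1.80-fold, 1.78-fold and 1.78-fold, against 3.75-fold for Siglec15, and 12 of the 29 genes were not called.

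**Figure D2:**
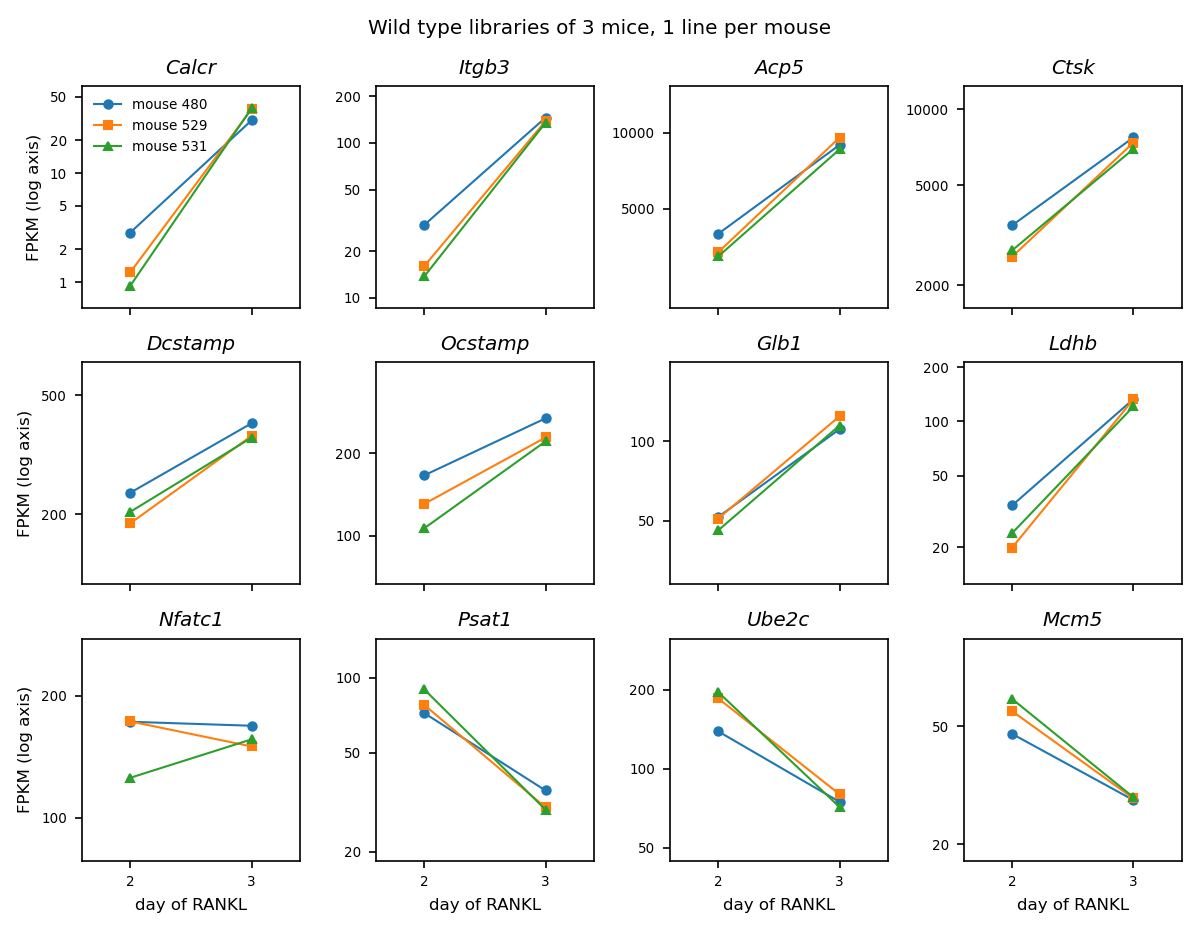
FPKM of 12 genes at day 2 and day 3 in wild type libraries, on log axes of different ranges, with 1 line per mouse. Lines of the 3 mice rise together for Calcr to Ldhb, cross without a common direction for Nfatc1 and fall together for Psat1, Ube2c and Mcm5; mouse 480 starts the highest for Calcr, Itgb3 and Ldhb and the lowest for Psat1, Ube2c and Mcm5.

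The proton pump that acidifies the space beneath the osteoclast is the vacuolar ATPase, built from many subunits. Of 19 subunit and accessory genes tested, 15 rose and 0 fell, with a median log2 change of 0.51. Atp6v1e1 rose by 1.03 from 323, 265 and 329 to 618, 639 and 613 FPKM, and Tcirg1, the membrane subunit of the osteoclast form, rose by 0.98 from 421, 335 and 342 to 739, 715 and 705 FPKM. In both genes the 3 day 3 libraries were close together and above every day 2 library. Atp6v1a and the accessory gene Atp6ap1 rose by 0.74 and 0.69. The 4 members not called were Atp6v0a1 (0.08) and Atp6v0a2 (0.18), membrane subunits of other cell compartments, the widely expressed Atp6v0d1 (0.22) and Atp6v1g2 (0.00). Without mouse 480, and likewise without mouse 529, 9 of the subunit genes were called as rises.

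Lysosomal genes followed: 30 of 41 tested rose and 2 fell (median 0.39), and 19 rose without mouse 480. Glb1, the lysosomal beta-galactosidase, was at 51.7, 51.0 and 46.0 FPKM at day 2 and at 111, 124 and 115 FPKM at day 3, a log2 change of 1.22 ± 0.0829 (adjusted p = 8.71e-05). Arsb, which removes sulfate from matrix glycosaminoglycans, rose by 1.39 from 153 ± 33.1 to 395 ± 9.37 FPKM, and Hexa, a lysosomal enzyme of glycolipid breakdown, rose by 0.99. Smpd1, the acid sphingomyelinase, rose by 0.95. Snx10, a sorting nexin whose loss causes osteopetrosis, rose by 1.35 from 265, 181 and 211 to 556, 535 and 568 FPKM. Both falls were lysosomal membrane proteins, Lamp1 (-0.37) and Scarb2 (-0.32), and neither was called without mouse 480 (adjusted p = 0.127 and 0.114). Among 22 genes of vesicle traffic 7 rose and 0 fell, led by Rab38 (1.70), a small GTPase of lysosome-related organelles, with Plekhm1 (0.71) and Rab9 (0.51), and 12 rose without mouse 531.

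The Glb1 window, chr9:114400828-114401127, plus strand, is shown for its E-box-like core CACGTG, in capitals, the letters within the site recognised by the lysosomal regulators of the Mitf and Tfe family.
Glb1: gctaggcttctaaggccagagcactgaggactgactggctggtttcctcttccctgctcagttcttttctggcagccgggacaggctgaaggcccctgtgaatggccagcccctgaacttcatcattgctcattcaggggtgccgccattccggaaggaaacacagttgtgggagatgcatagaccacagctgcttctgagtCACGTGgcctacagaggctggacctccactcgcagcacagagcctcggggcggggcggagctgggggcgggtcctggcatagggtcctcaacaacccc
CACGTG, which reads the same on both strands, was in 11 of 41 windows of the lysosomal list (26.8%) and in 4 of 18 windows of the vacuolar ATPase list (22.2%). It was in 10.4% of windows of genes tested and in 7.15% of all windows. Windows were found for 35 of the 41 lysosomal genes and 13 of the 19 ATPase genes, so some genes count with more than 1 start.

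Osteoclasts hold to bone through podosomes, actin-rich adhesion points that gather into a sealing ring. Of 47 podosome and actin genes tested, 17 rose and 2 fell (median 0.16), so the rises were 36.2% of the list against 22.2% of all genes. Beside Itgb3, the leading members were Myo1d, an unconventional myosin (1.66, 48.8 ± 13.8 to 152 ± 4.23 FPKM), Rhoc, a small GTPase (1.17, 20.1, 20.5 and 22.4 to 47.1, 47.6 and 50.4 FPKM), and the actin-branching regulator Cttn (0.62). Src, the kinase that osteoclasts need to form the ruffled border, rose by 0.47. The falls, focal adhesion kinase Ptk2 (-0.35) and the Ena/VASP protein Evl (-0.31), were both lost without mouse 480 (adjusted p = 0.0825 and 0.258). The plain majority, 28 genes, was not called in either direction.

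Of 38 genes of RANK, CSF1 receptor and ITAM signalling tested, 14 rose and 4 fell (median 0.10). Csf1r was at 357, 344 and 282 FPKM at day 2 and at 555, 575 and 549 FPKM at day 3, a log2 change of 0.78 ± 0.107 (adjusted p = 0.00102). The days did not overlap, and mouse 531 made the longest step. Tnfrsf11a, which encodes RANK, rose by 0.35 from 38.4, 35.0 and 32.3 to 47.0, 43.0 and 45.4 FPKM, a call lost without mouse 480 (adjusted p = 0.0513). Gab2, an adaptor that joins RANK to its pathways, rose by 0.59, and Traf6, the main adaptor of RANK, by 0.44. The falls were the ITAM-coupled receptor Trem2 (-0.73, 120, 135 and 165 to 69.4, 94.3 and 89.4 FPKM), Traf2 (-0.39), the inhibitory receptor Fcgr2b (-0.38) and the adaptor Blnk (-0.37). Without mouse 480, 8 rose and 2 fell, Fcgr2b and Blnk being the falls lost (adjusted p = 0.0624 and 0.0516), and Fcgr2b was lost without mouse 529 too (0.0502).

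Nfatc1, the master transcription factor of the lineage, was at 172, 173 and 125 FPKM at day 2 and at 169, 150 and 156 FPKM at day 3. It was lower at day 3 in mice 480 and 529 and higher in mouse 531, and the log2 change was 0.03 ± 0.111 (adjusted p = 0.867). Without mouse 531 the value was -0.12 (adjusted p = 0.179). Of 30 transcription factors listed as drivers of the lineage, 6 rose and 5 fell (median 0.04), which is near the background of all genes. Fosl1, an AP-1 subunit, fell by 1.43 from 2.51, 4.02 and 3.01 to 0.766, 0.464 and 0.393 FPKM. Fosl1 passed the filter through day 2 only, so it had to be lower at day 3. Myc fell by 0.55 from 69.2, 80.0 and 72.2 to 53.1, 48.3 and 49.0 FPKM. Rbpj, the Notch pathway factor, fell by 0.42, as did Nfatc2 by 0.32 and Pparg by 0.28, while Prdm1, the repressor Blimp1 that silences anti-osteoclast genes, rose by 0.46. Without mouse 480, 2 drivers rose and 3 fell, and Nfatc2 and Pparg were not called (adjusted p = 0.136 and 0.187). Without mouse 529, 3 fell and the same genes were not called (adjusted p = 0.17 and 0.166).

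Of 26 repressors of differentiation tested, 8 rose (30.8%) and 7 fell (26.9%), with a median of -0.08. The background of all genes was 22.2% and 21.4%. Without mouse 480, 5 repressors rose. Rcan1, an inhibitor of the phosphatase that activates Nfatc1, rose by 0.56 (58.9 to 68.1 FPKM at day 2, 85.4 to 102 FPKM at day 3). Rgs10, a regulator of G-protein signalling, rose by 0.53. Lilrb4, an inhibitory receptor, fell by 0.48. Irf8 and Bcl6, repressors that Prdm1 is known to silence, were not called: Irf8 was at 2.61, 3.73 and 3.82 and then at 2.38, 3.34 and 3.55 FPKM and Bcl6 at 8.13, 10.2 and 9.35 and then at 8.07, 8.92 and 8.37 FPKM. Each was a little lower at day 3 in every mouse, with adjusted p of 0.384 and 0.334.

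Genes of cell division fell almost without exception. In the list of mitosis and chromosome segregation 45 of 46 genes fell (median -0.73), and the other, Cit, was at -0.12, and without mouse 531 it was called at -0.34 (adjusted p = 0.0263). Ube2c was at 139, 185 and 196 FPKM at day 2 and at 74.9, 80.0 and 71.6 FPKM at day 3, a log2 change of -1.18 ± 0.112 (adjusted p = 0.000283). Ccnb2, a mitotic cyclin, fell by 0.91 from 51.2, 54.8 and 62.8 to 28.5, 29.9 and 29.9 FPKM. The 3 day 3 libraries were nearly equal for both genes, and mouse 480 was the lowest at day 2. Ccna2 and the checkpoint kinase Bub1 fell by 0.89 and 0.88, and Cdc20, the activator of the anaphase complex, fell by 1.02. Mki67, the proliferation antigen Ki-67, fell by 0.63 from 37.0, 55.5 and 32.5 to 23.5, 26.2 and 28.0 FPKM (adjusted p = 0.00827).

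Genes of DNA replication and nucleotide synthesis fell as widely, 38 of 39 tested (median -0.70). Mcm7 and Mcm5, subunits of the replicative helicase, fell by 0.93 and 0.92, with Mcm7 at 50.2, 54.7 and 61.8 FPKM and then at 27.7, 28.2 and 29.9 FPKM. Mcm2 and Mcm3 fell by 0.86 each, and thymidine kinase Tk1 by 0.85. The exception was Chaf1b, a subunit of the chaperone that loads histones behind the replication fork, which rose by 0.23 (24.4, 29.0 and 26.3 to 29.2, 33.2 and 31.8 FPKM) but was not called without mouse 480 (adjusted p = 0.22), without mouse 529 (0.11) or without the block (0.0564). Genes listed as cell cycle brakes did not move as 1 group. Of 16 tested, 6 rose (37.5%) and 4 fell (25%), against 22.2% and 21.4% of all genes. Without mouse 480, 3 rose and 2 fell. Cdkn1b, the inhibitor p27, rose by 0.57 from 17.4, 14.9 and 16.6 to 25.2, 23.5 and 25.6 FPKM, while Cdkn1a, the inhibitor p21, fell by 0.69 from 88.3, 123 and 122 to 62.7, 72.6 and 67.5 FPKM. Gas6, a ligand of TAM receptors and not itself an inhibitor of the cycle, rose by 1.32, and the antiproliferative gene Tob1 by 0.59. The other falls were Rbl1 (-0.56), Cdkn2d (-0.39) and Btg1 (-0.26). Of these, Cdkn2d and Btg1 were not called without mouse 480 (adjusted p = 0.108 and 0.0855), nor Btg1 without mouse 529 (0.0853) or mouse 531 (0.0547).

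The promoter windows of 3 mitotic genes are shown because many promoters of the list hold 2 short motifs, and promoter letters played no part in choosing the list. Capitals mark CCAAT, bound by the factor NF-Y, and TTTGAA, the core of the cell cycle homology region bound by the DREAM and B-Myb complexes, on either strand, with overlapping matches counted separately. The windows are chr2:164769679-164769978, plus strand (Ube2c), chr4:118437294-118437593, minus strand (Cdc20), and chr9:70421505-70421804, minus strand (Ccnb2).
Ube2c: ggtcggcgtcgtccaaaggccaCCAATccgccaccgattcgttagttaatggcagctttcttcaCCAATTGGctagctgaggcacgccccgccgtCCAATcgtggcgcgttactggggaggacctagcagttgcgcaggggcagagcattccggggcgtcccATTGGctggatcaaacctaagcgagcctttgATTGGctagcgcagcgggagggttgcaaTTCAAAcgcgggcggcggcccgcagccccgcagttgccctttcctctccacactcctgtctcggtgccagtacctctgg
Cdc20: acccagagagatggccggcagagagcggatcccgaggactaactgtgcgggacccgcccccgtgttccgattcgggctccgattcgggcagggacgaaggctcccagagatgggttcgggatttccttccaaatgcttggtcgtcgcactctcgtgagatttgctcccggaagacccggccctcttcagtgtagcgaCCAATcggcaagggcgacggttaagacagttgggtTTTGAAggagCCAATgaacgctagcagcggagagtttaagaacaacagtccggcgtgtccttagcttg
Ccnb2: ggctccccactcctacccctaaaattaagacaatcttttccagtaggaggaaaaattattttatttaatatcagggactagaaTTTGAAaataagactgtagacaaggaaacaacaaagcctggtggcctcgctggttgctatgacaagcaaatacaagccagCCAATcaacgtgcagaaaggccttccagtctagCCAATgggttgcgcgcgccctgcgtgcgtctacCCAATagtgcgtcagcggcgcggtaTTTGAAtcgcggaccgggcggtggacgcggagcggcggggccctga
Ube2c has 6 matches to CCAAT and 1 to TTTGAA, Cdc20 has 2 and 1, and Ccnb2 has 3 and 2. Over the mitosis list, 31 of 41 windows (75.6%) held CCAAT and 31 of 41 held TTTGAA. These windows belong to 39 of the 46 genes. Among windows of all genes tested the shares were 38.1% and 12.2%, and among all windows 37.4% and 17.9%. The replication list had CCAAT in 24 of 39 windows (61.5%) and TTTGAA in 4 of 39 (10.3%). A match says what letters are there, and no binding was measured.

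Amino acid synthesis and protein production genes fell with little in the other direction. Of 21 genes of the integrated stress response and amino acid synthesis tested, 14 fell and 0 rose (median -0.51). Behind Phgdh and Psat1 came Slc7a5, a carrier of large neutral amino acids (21.8, 22.7 and 21.5 to 10.7, 9.32 and 9.46 FPKM), Mthfd2, a mitochondrial folate enzyme (-1.03, 76.8, 66.5 and 80.5 to 40.1, 34.3 and 33.9 FPKM), and Shmt2 (-0.91). Asns, the asparagine synthetase, fell by 0.90 from 86.7, 97.9 and 94.6 to 53.2, 50.3 and 45.2 FPKM. Atf4, the transcription factor that drives many of these genes, fell by 0.51. No library of one day reached the range of the other for the genes given with values. Of 20 cytosolic aminoacyl-tRNA synthetases, 12 fell and 0 rose (median -0.36), with Yars (-0.70), Tars (-0.69), Cars (-0.60) and Vars (-0.58) called with the smallest adjusted p. Of 39 cytosolic ribosomal protein genes, 24 fell and 0 rose (median -0.37), led by Rpl30 (-0.64) and Rps6 (-0.51). The ribosomal count depended on the mice: 2 fell without mouse 480, 13 without mouse 529 and 14 without the filter on low values, and the list median was -0.29 in mouse 480, -0.18 in mouse 529 and -0.63 in mouse 531, whose day 3 library was the shallowest. Rps2 (-0.45) was not called without mouse 480 (adjusted p = 0.154) or mouse 529 (0.0756), nor Rpl37 (-0.39) without mouse 480 (0.0893). Many ribosomal genes have processed copies, and how reads were shared among them is not given in the sources used here.

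In energy metabolism, 15 of 41 genes of the respiratory chain and ATP synthase rose and 0 fell (median 0.27). Sdha, the flavoprotein of succinate dehydrogenase, rose by 0.60 from 239, 212 and 230 to 351, 341 and 339 FPKM, and Uqcrc2, a core subunit of complex III, by 0.51. The count was 3 without mouse 480, 5 without mouse 529 and 37 without mouse 531, and the list median was 0.30, 0.43 and 0.08 in mice 480, 529 and 531. Ndufa10 (0.46) and Ndufs1 (0.41), of complex I, were not called without mouse 480 (adjusted p = 0.0556 and 0.0541). Of 22 genes of glycolysis and glucose uptake, 4 rose and 9 fell (median -0.23), and 5 fell without mouse 480. The rises were Ldhb, from 26.1 ± 7.34 to 129 ± 6.76 FPKM, Pdk1, the kinase that holds pyruvate dehydrogenase back (0.99), the muscle-type phosphofructokinase Pfkm (0.86) and Hk1 (0.33, adjusted p = 0.0848 without mouse 480). Hk2, the inducible hexokinase, fell by 0.54, and the lactate carrier Slc16a1 by 0.60.

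Cholesterol genes leaned upward, with 14 of 28 rising and 1 falling (median 0.28). Insig1, which restrains the sterol regulator, rose by 1.41 from 13.1, 9.68 and 10.4 to 29.3, 30.4 and 33.1 FPKM. Scd2, a fatty acid desaturase, rose by 0.91, Hmgcs1, the enzyme before the rate-limiting step, by 0.60, and Nsdhl by 0.59. The fall was Fasn (-0.33), the fatty acid synthase, not called without mouse 480 (adjusted p = 0.163) or mouse 529 (0.241). The rises numbered 8 without mouse 480 and 9 without mouse 529. Of 15 genes of iron, creatine and metal handling, 6 rose and 3 fell. Ckb and Ckmt1, the brain-type and mitochondrial creatine kinases, rose by 1.81 (1063 ± 92.9 to 3718 ± 142 FPKM) and 1.88. Mt3, a metallothionein, rose by 1.75 from 429, 332 and 380 to 1190, 1328 and 1299 FPKM, while Mt2 fell by 0.58, so members of the metallothionein family moved apart. Hmox1, the heme-degrading oxygenase, fell by 1.03 from 269 ± 43.1 to 131 ± 11.5 FPKM, and the zinc carrier Slc39a6 fell by 0.45.

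**Figure D3:**
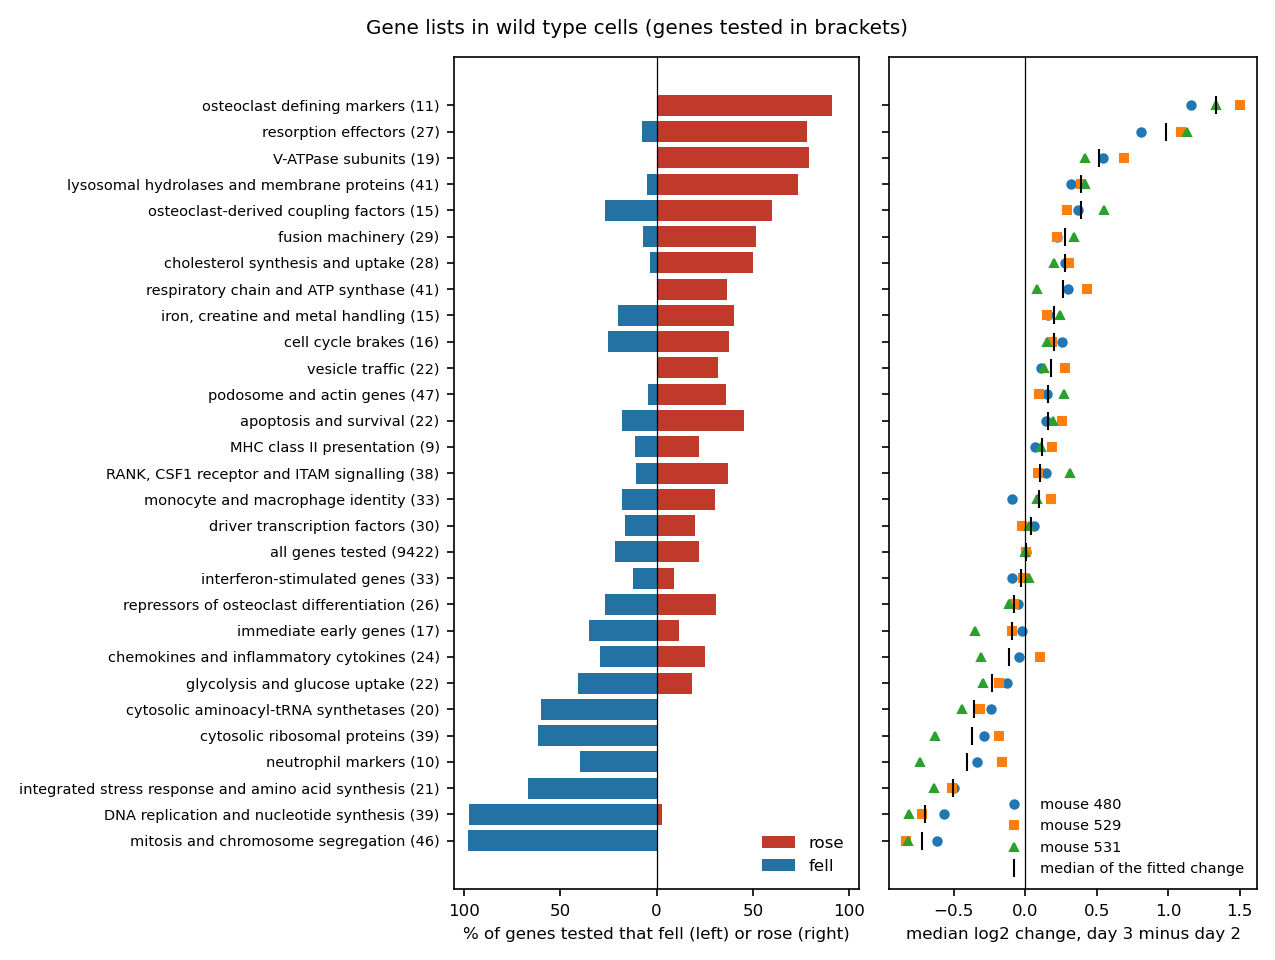
Left, the percentage of tested genes in each of 28 lists, and in all 9422 genes, that rose (red, to the right) or fell (blue, to the left); right, the median log2 change of each list in each mouse and of the fitted change. The osteoclast marker, resorption and vacuolar ATPase lists stand at the top and the mitosis and replication lists at the bottom; for the ribosomal list mouse 531 (-0.63) lies apart from mice 480 (-0.29) and 529 (-0.18).

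Macrophage genes did not move as a group. Of 33 genes of monocyte and macrophage identity tested, 10 rose (30.3%) and 6 fell (18.2%), with a median of 0.09. The background of all genes was 22.2% and 21.4%. The summed level of the macrophage genes was 4467 to 5822 FPKM at day 2 and 4523 to 6626 FPKM at day 3, ranges that overlap. Without the block 3 fell, and 2 fell in a fit of all 24 libraries. Clec4a1, a lectin receptor, rose by 0.73, and Csf2ra, a receptor chain for GM-CSF, by 0.56 (adjusted p = 0.0501 in the fit of all libraries). Apoe, the lipid carrier, rose by 0.82 from 90.7, 62.1 and 73.7 to 120, 160 and 121 FPKM. Axl, a TAM receptor, fell by 0.79 from 2.03, 1.56 and 1.64 to 0.743, 0.429 and 0.575 FPKM. Axl passed the filter through day 2 only, so it had to be lower at day 3. In bulk RNA, fewer cells of a type and less RNA per cell cannot be told apart.

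Of 24 chemokine and inflammatory cytokine genes, 6 rose (25%) and 7 fell (29.2%), with a median of -0.11, and 3 fell without the block. The background of all genes was 22.2% and 21.4%. Ccr1, a chemokine receptor of osteoclast precursors, rose by 0.53 from 189, 172 and 158 to 276, 243 and 231 FPKM. Osm fell by 1.05, Il10 by 0.77 and Il1rn, the antagonist of interleukin 1, by 0.51. Il10 was at 6.65, 3.37 and 3.60 and then at 3.99, 1.34 and 1.68 FPKM, so the days overlapped, mouse 480 lying above the others on both, and the call was lost without the block (adjusted p = 0.0599). Among 17 immediate early genes 2 rose and 6 fell: Dusp6 rose by 0.52 and Zfp36 by 0.57, while Ier3 fell by 0.89 and Dusp5 by 0.54. Zfp36 was not called without mouse 480 (adjusted p = 0.0809) or without the block (0.0527), and 4 genes rose without mouse 529 and 4 without mouse 531.

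Interferon-stimulated genes were mostly not called, with 3 rises and 4 falls among 33 tested (median -0.03; Irf7 passed the filter through day 3 only), a smaller share in each direction than the background of 22.2% and 21.4%. Irf7, an interferon regulatory factor, rose by 0.55, from 0.525, 1.03 and 1.21 to 1.26, 2.27 and 1.91 FPKM, and Isg15 rose by 0.34. Ifitm3, a membrane protein against viral entry, fell by 0.98 from 410, 656 and 727 to 267, 353 and 271 FPKM. Rtp4 (-0.50), Oasl1 (-0.31) and Bst2 (-0.31) also fell. Several of these calls were fragile: 5 rose and 2 fell without mouse 480, where Oasl1 and Bst2 were lost (adjusted p = 0.0596 and 0.149), as they were without mouse 531 (0.124 and 0.064), and Isg15 and Oasl1 were lost without mouse 529 (0.207 and 0.0918). In the fit of all 24 libraries Irf7 and Rtp4 were not called (adjusted p = 0.0651 and 0.218). Of 9 genes of MHC class II presentation, Cd74 (0.30) and H2-Ab1 (0.29) rose and the co-stimulatory gene Cd80 fell (-0.69). The rises were 22.2% of the list, the same as the background, and the falls 11.1%, below it. Cd74 and H2-Ab1 were not called without mouse 480 (adjusted p = 0.105 and 0.147) or without mouse 529 (0.131 and 0.122), nor in the fit of all 24 libraries (0.462 and 0.408).

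Factors by which osteoclasts signal to bone-forming cells rose in 9 of 15 cases and fell in 4 (median 0.39), with Cthrc1 in the test through its day 3 level only. Cthrc1, a secreted coupling protein, was at 0.162, 0.0781 and 0.117 FPKM and then at 2.14, 3.41 and 2.68 FPKM, a rise of 1.73 on the log2 scale of FPKM + 1, which understates the change of so low a gene. Efnb2, the ligand ephrin B2, rose by 1.21 from 2.86, 1.77 and 1.68 to 6.41, 5.85 and 6.01 FPKM. Spns2, the exporter of sphingosine 1-phosphate, rose by 1.13, Sphk1, the kinase that makes it, by 1.11, and the growth factor gene Pdgfb by 0.72. The falls were Plau (-0.72), Igf1 (-0.45), Vegfc (-0.36) and Pdgfa (-0.30), of which Igf1 and Pdgfa were not called without mouse 480 (adjusted p = 0.0602 and 0.0607) or in the fit of all 24 libraries (0.132 and 0.377). Of 22 genes of apoptosis and survival, 10 rose and 4 fell, and 6 rose without mouse 480. Pmaip1, the BH3-only protein Noxa, rose by 1.42 from 6.79, 7.01 and 8.37 to 16.7, 22.1 and 26.1 FPKM, and Trp53inp1 by 0.89. Bcl2a1b, a survival gene with close copies, rose by 0.78. Besides Cdkn1a, the death genes Bax (-0.69), Bid (-0.62) and Bak1 (-0.44) fell, Bak1 not being called without mouse 529 (adjusted p = 0.0554).

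Markers of other cells that marrow cultures could hold summed to far less than the osteoclast markers of the same day, most of whose sum was Acp5, Ctsk and Mmp9. The table held 10 of 12 listed B cell, 3 of 13 T and NK cell and 6 of 12 mast cell and basophil markers. It held 15 of 18 neutrophil, 8 of 10 dendritic cell, 7 of 11 erythroid and megakaryocyte and 5 of 16 stromal markers. Markers outside the table could not be read. The 10 B cell markers and 3 T and NK cell markers in the table were all below 1 FPKM in each of the 6 libraries, with the B cell factor Pax5 at 0 throughout, and so were the 6 mast cell and basophil markers. Neutrophil markers, 15 in the table, summed to 135 to 226 FPKM at day 2 and 80.2 to 173 FPKM at day 3, against 5995 to 16238 FPKM at day 0. Of 10 tested, 4 fell (S100a8, S100a9, Lcn2 and Mpo, by 0.59 to 0.66) and 0 rose, and without the block 0 were called, with adjusted p of 0.108, 0.139, 0.148 and 0.0522. Dendritic cell markers summed to 2.88 to 4.41 FPKM and then to 5.76 to 8.06 FPKM, with Itgax and Zbtb46 called as rises (0.85 and 0.58). Zbtb46 passed the filter through day 3 only, so it had to be higher there. Erythroid and megakaryocyte markers summed to 24.9 to 34.0 and then to 14.3 to 25.3 FPKM, nearly all of it Pf4, which fell by 0.59 (adjusted p = 0.0584 without mouse 480). Stromal markers summed to 6.38 to 6.76 and then to 4.80 to 5.13 FPKM, with Dcn falling by 0.54. The part of these cells in the other gene groups was not tested.

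The same step in STING-deficient cells shares no library with the wild type and was fitted in the same way. There 5853 of 9408 genes were called (62.2%), 3004 as rises (31.9%) and 2849 as falls (30.3%). Across the 9360 genes tested in both genotypes the log2 changes had r = 0.89, a description over genes, which are not independent. Of the wild type rises, 1983 also rose in STING-deficient cells, 94.9% of the wild type and 66% of the STING-deficient rises. Of the wild type falls, 1891 also fell, 93.7% of the wild type and 66.4% of the STING-deficient falls, and 1 gene was called in opposite directions. Tested directly, 0 of 9470 genes had a genotype by day difference in limma (smallest adjusted p 0.97), and 152 had an unadjusted p below 0.05 (1.61%). A p that misses the threshold does not show that the genotypes are equal. Calcr rose by 3.67 in STING-deficient cells against 3.85, Itgb3 by 2.65 against 2.83, Dcstamp by 0.89 against 0.85 and Ctsk by 1.37 against 1.33. Ube2c fell by 1.08 against 1.18 and Psat1 by 1.25 against 1.31. Among the lists, 24 of 27 resorption effectors, 17 of 19 vacuolar ATPase genes and 18 of 29 fusion genes rose in STING-deficient cells, and all 46 mitosis genes fell. The respiratory chain had 40 rises of 41 there (median 0.37), and the ribosomal list 39 falls of 39 (median -0.25), against 15 and 24 calls in wild type, a difference in calls that was not itself called for any gene. Sting1 itself fell by 0.41 in wild type (adjusted p = 0.0102) and was at 0.03 in STING-deficient cells (adjusted p = 0.749).

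**Figure D4:**
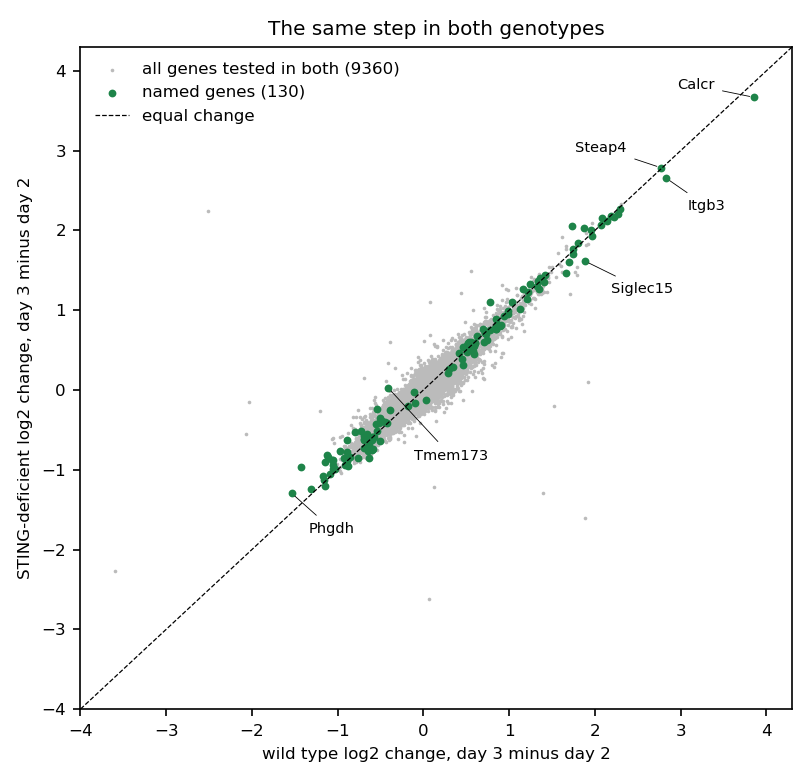
Log2 change from day 2 to day 3 in wild type (x axis) and in STING-deficient cells (y axis) for the 9360 genes tested in both, with 130 named genes in green and a dashed line of equal change. Named genes lie along the line from Phgdh to Calcr; 2 genes lie outside the axes.

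Day 4 values were set beside the step, with the caution that day 4 against day 3 uses the same day 3 libraries, so no measure of likeness is given. From day 3 to day 4, 3449 of 9502 genes were called (36.3%), 1687 as rises (17.8%) and 1762 as falls (18.5%). Calcr rose again by 1.46, Acp5 by 1.08 to a mean of 19068 FPKM and Ctsk by 0.71, while Dcstamp (0.20) and Atp6v0d2 (0.17) were not called and Ocstamp fell by 0.37. Nfatc1 fell by 0.56 in that interval. In that interval 45 of 45 mitosis genes fell (median -0.58), and 34 of 39 replication genes fell. Among vacuolar ATPase genes 6 of 19 rose, against 15 of 19 a day earlier, and 33 of 41 lysosomal genes rose, against 30 of 41. Of the 32 interferon-stimulated genes tested in both intervals, 3 rose and 3 fell from day 2 to day 3, and 25 rose and 1 fell from day 3 to day 4. Of the 32 macrophage identity genes tested in both, 10 rose and 5 fell in the first interval, and 30 rose and 1 fell in the second. Trem2 and Rtp4, which fell from day 2 to day 3, rose from day 3 to day 4 (0.68 and 1.08), and the lysosomal cathepsin gene Ctss did the same (-0.67, then 0.74).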

How the data were processed

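RNA-seq libraries of 24 cultures (2 genotypes, 4 days, 3 mice per group) were used as 1 deposited table. Per the submitters' processing notes, the authors used HISAT2 2.0.5, Cufflinks 2.2.1 and Cuffdiff with mm10. The deposited values are FPKM per gene, normalised by the authors for length and depth; the sources used here name neither the annotation nor the strandedness nor the rule that selected 10721 genes, and p-values are adjusted over that selection. FPKM keep no fragment totals, so the count precision of each value is unknown.

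FPKM plus a pseudocount of 1 were put on a log2 scale, and genes with a mean of at least 1 FPKM in either group were tested in R 4.3.3 by limma 3.58.1 (two-sided, mean-variance trend, mouse as a block, 2 residual and 6.32 prior degrees of freedom). P-values were adjusted by Benjamini-Hochberg over all genes tested and called below 0.05. A fold is the ratio of mean FPKM, whereas a log2 change includes the pseudocount and so understates low genes. "Without the block" means the same fit with no mouse term. The pairing comes from the mouse numbers in the labels. Deviations from the group means of the same mouse on both days had r across genes of 0.302 (480), 0.314 (529) and 0.028 (531), and those of different mice -0.383 to 0.035.

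The comparison, the 34 gene lists and the rules were chosen with earlier results of these data known. Named genes were the 12 largest rises and falls among called genes of at least 5 FPKM with no overlap and 1 direction in 3 mice, unnamed gene models left out; the 4 called members of each list with the smallest adjusted p; and 16 genes named whatever their values. A few named genes are not reported here. Other genes in the text were chosen after their values were seen. Symbols were matched to RefSeq on GRCm38.p6 (89.5% current), which also gave coordinates and promoter windows of 300 bases. Alternatives were no block, a pseudocount of 0.1, no filter, a filter at 5 FPKM, median scaling, a fit of all 24 libraries, and leaving out each mouse.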

Additional observations from a re-analysis of the deposited data

How the results depend on the processing

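With 1 mouse left out, the wild type called genes ranged from 2656 (without mouse 480) to 4628 (without mouse 531), with 1364 to 2405 rises and 1292 to 2223 falls. In STING-deficient cells they ranged from 4398 to 6299 (2314 to 3228 rises, 2084 to 3071 falls). Day 4 against day 3 gave 2221 to 4195 (1128 to 2008 rises, 1093 to 2187 falls). The genotype by day difference gave 0 to 1: Cep250 without mouse 531 and Snord37 without mouse 528. Without the replicate block, 4011 genes were called in wild type (2056 rises, 1955 falls), 4273 in STING-deficient cells, 3092 for day 4 against day 3 and 0 for the genotype by day difference. A fit of all 24 libraries gave 3718 calls in STING-deficient cells (1715 falls). In wild type the other settings gave 2021 to 2183 rises and 1994 to 2086 falls, except 1680 and 1776 with the filter at 5 FPKM, which tests 7365 genes. All 131 genes named by rule kept direction and call with a pseudocount of 0.1, no filter or median scaling, as did the 119 tested with the filter at 5 FPKM. Calls were lost for 5 genes without the block, for 5 in the fit of all libraries, for 8 without mouse 480, for 3 without mouse 529 and for 0 without mouse 531, where Nfatc1, uncalled throughout, went to -0.118 (0.14 without mouse 529). Of 64 genes named after their values were seen, 22 lost the call without mouse 480, 11 without mouse 529, 3 without mouse 531, 8 without the block and 10 in the fit of all libraries. The cause of these shifts was not tested. Fragment totals were not used, and the effect of depth on the calls was not tested.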

Other observations

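Several gene families were tallied by symbol after the values were seen, and some of their members recur from the lists above. Of 18 histone genes in the table (symbols starting Hist), 12 were tested and were called as rises. Because 5 of the 12 passed the filter through day 3 only and had to be higher there, the count is partly set by the filter. The other 7, at 1 FPKM or more at day 2, all rose, and with no filter 13 of the 18 rose and 1 fell. Hist1h1c, a linker histone, was at 24.7, 18.7 and 22.2 FPKM at day 2 and at 79.6, 67.1 and 67.1 FPKM at day 3. Hist1h2bc rose by 1.46 from 53.9 ± 3.50 to 151 ± 12.4 FPKM, and Hist1h4h by 1.79 from 0.693 ± 0.275 to 4.84 ± 0.569 FPKM. The days did not overlap for these 3 genes, as for 28.8% of all genes tested, which were higher at day 3. Hist1h4h was among the 5 genes that passed the filter through day 3 only. The variant gene H2afx went the other way (-1.07). Histone genes are near copies of each other, and the sources used here do not say whether polyadenylated RNA was selected, so values of single members are uncertain. Without the block 11 of the 12 were called, and with the filter at 5 FPKM 7 were tested and called.

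Nuclear pore genes fell in 15 of 19 cases and rose in 0 (median -0.40), led by Nup43 (-0.84). Proteasome subunits fell in 20 of 35 and rose in 0, with Psmc5 at -0.48 and 6 falls without mouse 480. The proteasome median was -0.18 in mouse 480, -0.20 in mouse 529 and -0.52 in mouse 531, whose day 3 library was the shallowest. For many of these genes mouse 531 was also the highest at day 2. Psmc5 was at 122, 120 and 142 FPKM and then at 98.5, 90.1 and 84.7 FPKM in mice 480, 529 and 531. Not all did so, as Psmd11 was at 76.6, 77.2 and 73.8 FPKM at day 2. The part of either library in the median was not tested. Of 70 mitochondrial ribosomal protein genes, 1 rose and 5 fell (10 rose without mouse 531), shares of 1.43% and 7.14%, both below the background. Still, 56 of the 70 had a negative change (median -0.15). Their median was -0.03 in mouse 480, -0.02 in mouse 529 and -0.32 in mouse 531. The cytosolic list had 24 falls of 39, and the difference between the 2 lists was not tested. Among 13 integrin subunits 5 rose and 0 fell: Itgb3, Itga2 (1.71, 2.37, 2.27 and 1.06 to 7.22, 8.34 and 9.45 FPKM), Itgax, Itgav and Itgb1 (0.36, adjusted p = 0.0738 without mouse 480 and 0.0859 without mouse 529). Among 11 tetraspanins 6 rose, Tspan7 far ahead of Tspan10 and Tspan17 (0.69 each), and Tspan32 fell (-0.42, adjusted p = 0.131 without mouse 480). Tspan10 passed the filter through day 3 only and had to be higher there. Of the 10 tetraspanins at 1 FPKM or more at day 2, 5 rose. Without mouse 480, 3 tetraspanins rose. Cathepsins parted: Ctsk (1.33) and Ctsf (0.97) rose while Ctss and Ctsl fell. Of 11 cathepsins 5 rose and 3 fell, with 2 rises and 1 fall without mouse 480, 2 rises without mouse 529 and 8 rises without mouse 531.

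Zero values made some changes unreadable. Cep250, a centrosomal gene, was at 7.90, 7.26 and 7.03 FPKM at day 2 and listed at 0, 0 and 7.49 FPKM at day 3 in mice 480, 529 and 531, and was called with a log2 change of -2.04. Mir27a, a microRNA gene, was listed at 0, 41.1 and 41.1 FPKM and then at 0 in all 3, and was called with -3.60 (adjusted p = 0.0937 in the fit of all 24 libraries). A listed 0 can be a failed estimate. Egr1 was at 1.97, 0.732 and 0.626 FPKM and then at 21.7, 0.629 and 0.854 FPKM, so a single library, day 3 of mouse 480, carried its change of 1.01 (adjusted p = 0.121). Without mouse 480 its mean was below 1 FPKM on both days and it was not tested.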
